A study of Mus musculus with 12 samples.

Results

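Kidneys of mice given cannabidiol (CBD) at 20 mg/kg body weight were compared with kidneys of mice given none. CBD is a cannabinoid of the hemp plant that does not intoxicate. The kidneys were chosen by their treatment labels, with 4 libraries of treated and 4 of control mice, so that 8 of the 12 libraries of the series were compared. All animals were male C57BL/6J mice, an inbred laboratory strain, and both groups received an intraperitoneal injection of saline with Tween 80 every day for 28 days, with CBD added in the treated group alone. Each library was made from poly(A) RNA of whole kidney of 1 mouse, so replicates here are mice and the values mix all cell types of the organ. The remaining 4 libraries, from mice given 10 mg CBD/kg b.w. for the same 28 days, entered the fit to share its estimate of the spread and are not described. At what time of day the kidneys were taken is not given in the sources used here.

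The nephron handles the filtrate in series. The proximal tubule takes back nearly all glucose and amino acids and much of the phosphate, makes ammonia from glutamine, activates and breaks down vitamin D and takes up filtered protein by endocytosis. The loop of Henle dilutes the urine, the distal convoluted and connecting tubules adjust sodium, magnesium and calcium, and the collecting duct adjusts water, potassium and acid under vasopressin and aldosterone. Many of these transporters vary over the day, since kidney cells hold a molecular clock in which Bmal1 with Clock or Npas2 activates genes through E-boxes, and the products of these genes (period and cryptochrome proteins, REV-ERBs, Dbp) feed back on the loop.

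Between 17946614 and 23532088 reads were counted on genes in each control library and between 16306563 and 18219064 in each treated library. Mitochondrial genes took 5.77% to 17.5% of the counts in the control mice and 5.54% to 23.4% in the treated mice. The means differed by 3.47 percentage points (two-sided exact permutation test, p = 0.486, n = 4 in each group, where the smallest possible p is 0.0286). With 4 mice in each group, this test cannot show that the shares are equal. Markers of kidney were abundant. Slc34a1, the phosphate cotransporter of the proximal tubule, lay between 2636 and 4070.5 CPM (counts scaled to a common library size by the TMM factors of edgeR) in all 8 libraries. Summed levels of podocyte, endothelial, stromal, macrophage, thick limb and principal cell markers overlapped between the groups. Those of the early proximal tubule did not, with 8383 to 10445 CPM in the control mice and 6915 to 7829 CPM in the treated mice. The adipocyte markers did not overlap either, and were tried as covariates. Of the markers of adrenal cortex, pancreatic acinar cells and skeletal muscle, 7 of 9, 7 of 8 and 6 of 7 were too low to be tested.

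Of 17163 genes tested, 29 rose and 23 fell in the treated mice (edgeR's quasi-likelihood test, Benjamini-Hochberg adjusted p under 0.1), which is 0.169% and 0.134% of the genes tested, and 0.303% together. All 4 treated mice lay outside the range of the 4 control mice in each of these 52 genes. Their choice by a small p in the same libraries nearly ensures this, so it is no separate support. Over all genes tested, the treated mice lay above all control mice in 2.67% and below them in 2.63%. The median log2 fold change of all genes tested was 0.015. At an unadjusted p under 0.05, 4.92% of all genes were higher and 3.53% lower in the treated mice, and 8.08% were called once the mitochondrial share of each library was a covariate, the 52 genes among them. DESeq2 called 1.06%, with 51 of the 52. Called, without a tool, means by edgeR. Of the genes named in the following text that edgeR did not call, DESeq2 called Lrp2, Glud1, Pck1, G6pc1, Calb1, Avpr1a, Slc22a28, Fkbp5, Tsc22d3, Mt2, Tef, Per2, Acaca, Scd1, Acly, Cyp2d9, Sphk1, Lox, Col4a3, Upp2 and Ndrg1 (adjusted p under 0.1). Of the 52 genes, 27 belonged to at least 1 of 47 lists of nephron functions and pathways (14 and 33 lists, together 806 genes, of which 751 were tested), and 20 lists held at least 1 of them. With each of the 12 libraries left out in turn, 10 of the 52 genes kept their call in every fit: Dbp, Per3, Bhlhe41, Npas2, Nfil3, Ypel2, Ppard, Acmsd, Cyp2a5 and the RNA gene A830021M18Rik. Of the 52, 13, 14, 26 and 14 remained without control replicates 1 to 4, and 34, 18, 28 and 25 without treated replicates 1 to 4. The direction of each of the 52 was the same in every fit, which groups without overlap make nearly certain in advance. The gene models of Slc5a2, Cyp24a1, Hacl1, Nr1d1, Dbp, Per3, Klf2, Tns2 and Usp2 overlap another coding gene on the opposite strand, and that of Pear1 one on the same strand. The strand setting of the counting is not given in the sources used here, so their values are uncertain to that extent.

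Among the transport genes of the nephron, expression of the glucose carrier Slc5a2, the calcium exchanger Slc8a1 and the vitamin D 24-hydroxylase Cyp24a1 fell, and that of the glutamine carrier Slc38a3 rose. The changes were between 1.52-fold and 2.83-fold. The proximal enzymes Gatm and Acmsd fell as well, and the other main carriers of these segments did not pass the test. In whole tissue, fewer cells of a type and less RNA per cell cannot be told apart.

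Slc5a2 (ENSMUSG00000030781, chromosome 7 from 127864829 to 127871602 in GRCm39) encodes SGLT2, the luminal carrier that recovers most filtered glucose in the early proximal tubule. It stood at 215, 222, 197 and 236 CPM in control replicates 1 to 4 and 131, 138, 140.5 and 162 CPM in treated replicates 1 to 4. Every treated mouse was below every control mouse (log2 fold change -0.61, standard error 0.12, edgeR adjusted p = 0.0820), a 1.52-fold decrease. Slc5a1, the high-affinity glucose carrier of the late proximal tubule, had a log2 fold change of -0.24 (adjusted p = 0.714 from edgeR), and the inositol carrier Slc5a11, chosen after its values were seen, one of -0.45 (adjusted p = 0.379 from edgeR). Of the 9 sugar carriers tested, 1 fell, none rose, and the median log2 fold change was -0.17. Slc5a2 overlaps the gene Rusf1. The call was lost when any 1 of the 8 compared libraries was left out (adjusted p up to 0.273).

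Slc38a3 (ENSMUSG00000010064, chromosome 9 from 107527815 to 107547018) encodes SNAT3, which brings glutamine into proximal cells from the blood side for ammonia production. Its level was 51.7, 49.8, 57.4 and 73.0 CPM in the control mice and 106, 92.3, 104 and 92.7 CPM in the treated mice. The groups did not overlap, and the increase was 1.70-fold (log2 fold change 0.77, standard error 0.15, edgeR adjusted p = 0.0763). It was the only called gene among 14 amino acid carriers tested, whose median log2 fold change was -0.13, and the only one among 12 genes of proximal acid-base transport and ammonia production, with a median of 0.034. In the latter list the treated mice also lay above all control mice for Pck1, which makes phosphoenolpyruvate from the carbon that glutamine leaves (log2 fold change 0.65, adjusted p = 0.295 from edgeR), and for the glutamate dehydrogenase Glud1, chosen after its values were seen (log2 fold change 0.38, adjusted p = 0.364 from edgeR). Slc38a3 lost its call in 9 of the 12 leave-one-out fits, each without 1 library, and control replicate 4 was the compared library without which it kept it. Slc43a1, a carrier of branched-chain amino acids outside these lists, rose 2.29-fold from a low level (1.55, 1.72, 1.26 and 1.52 CPM in the control mice and 2.69, 3.71, 4.26 and 3.27 CPM in the treated mice; log2 fold change 1.20, standard error 0.21, edgeR adjusted p = 0.0357).

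**Figure D1:**
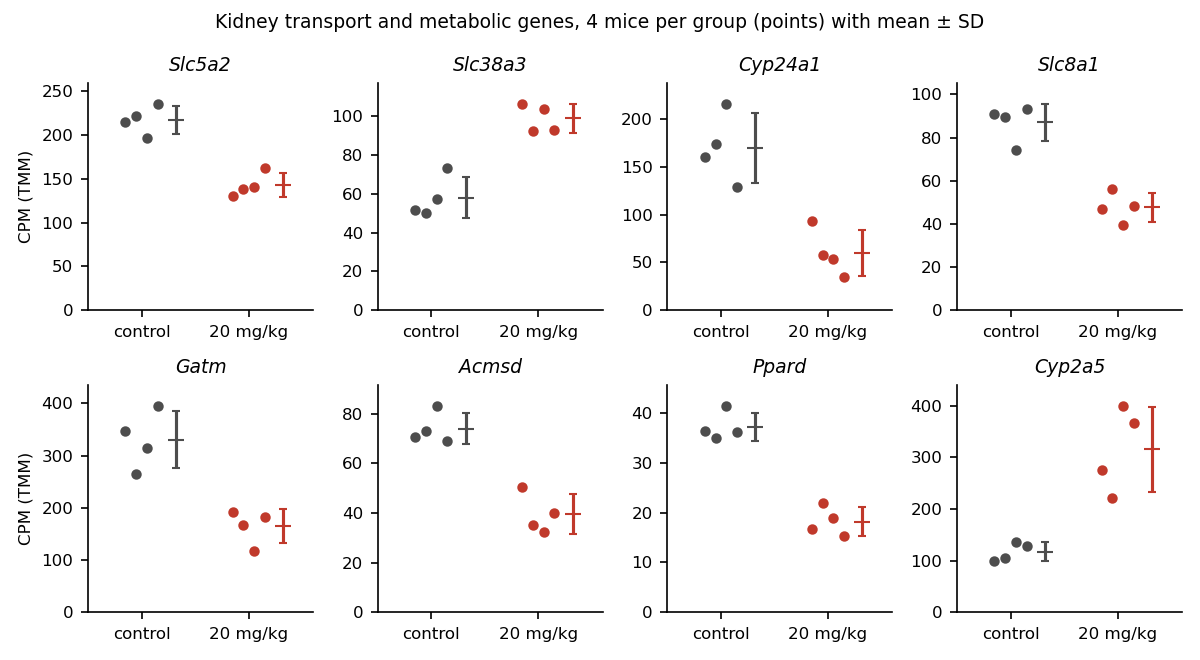
Level (CPM, TMM-normalized, linear axis from 0) of 8 called genes in the 4 control and 4 treated mice; points are mice in replicate order, and the bar beside them is mean ± SD (n = 4). The treated mice lie above all control mice for Slc38a3 and Cyp2a5 and below them for the other 6 genes.

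Both the breakdown of vitamin D and the distal recovery of calcium held further decreased genes. Cyp24a1 (ENSMUSG00000038567, chromosome 2 from 170324628 to 170339065), the enzyme that inactivates calcitriol and its precursor, stood at 161, 174, 216 and 129 CPM in the control mice and 93.6, 57.7, 53.6 and 34.8 CPM in the treated mice. The highest treated mouse was below the lowest control mouse (log2 fold change -1.50, standard error 0.31, edgeR adjusted p = 0.0849), and the call was lost in 9 of the 12 leave-one-out fits. Cyp27b1, the enzyme that makes calcitriol (chosen after its values were seen), differed in the other direction and did not pass (log2 fold change 0.73, adjusted p = 0.537 from edgeR). Of 14 genes of phosphate transport and vitamin D tested, 1 fell and none rose (median log2 fold change -0.14). The phosphate carriers Slc34a1 and Slc34a3 stood at -0.23 and -0.36 on the log2 scale (edgeR adjusted p = 0.745 and 0.466), and the FGF23 coreceptor Kl, also chosen after its values were seen, one of -0.50 (adjusted p = 0.391 from edgeR).

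Slc8a1 (ENSMUSG00000054640, chromosome 17 from 81680534 to 82045891) encodes NCX1, the sodium-calcium exchanger through which cells of the connecting tubule pass calcium to the blood. It stood at 91.0, 89.6, 74.2 and 93.3 CPM in the control mice and 47.0, 55.9, 39.4 and 48.1 CPM in the treated mice. All treated mice were below all control mice (log2 fold change -0.87, standard error 0.15, edgeR adjusted p = 0.0340), and the call was lost without control replicate 1, 2 or 4 (adjusted p up to 0.134). The luminal calcium channel Trpv5 had a log2 fold change of -0.60 (adjusted p = 0.533 from edgeR). The calcium-binding protein Calb1, chosen after its values were seen, stood at 209, 244, 97.9 and 165 CPM in the control mice and 111, 84.3, 86.4 and 98.9 CPM in the treated mice. Its groups overlapped, and DESeq2 called it (adjusted p = 0.0134) and edgeR did not (log2 fold change -0.91, standard error 0.22, edgeR adjusted p = 0.168). Its log2 fold change was -0.45 with Adipoq and -0.44 with the summed adipocyte markers as covariate. Of the 13 genes of distal calcium transport tested, 2 fell (Slc8a1 and Cyp24a1) and none rose, and the median log2 fold change was -0.31, the lowest of the 14 nephron lists. Cyp24a1, a vitamin D enzyme, is counted in the list of phosphate transport and vitamin D as well. The 7 markers of the distal convoluted and connecting tubules, Slc8a1, Calb1 and Trpv5 among them, all had negative log2 fold changes (median -0.48), and their summed level overlapped, with 1575 to 2637 CPM in the control mice and 1426 to 1806 CPM in the treated mice.

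In the distal convoluted tubule none of 17 tested genes was called by edgeR or DESeq2, and 3 had an unadjusted p under 0.05. Slc12a3, the thiazide-sensitive sodium chloride cotransporter, had a log2 fold change of -0.48 (adjusted p = 0.391) and the kinase Wnk1, which controls it, one of -0.36 (adjusted p = 0.503; both from edgeR). Among 17 genes of aldosterone-regulated sodium and potassium transport, Usp2 rose and none fell. It encodes a deubiquitinating enzyme that is under clock control and acts on the epithelial sodium channel, and it stood at 80.2, 101, 107 and 87.9 CPM in the control mice and 124, 141, 227 and 168 CPM in the treated mice, without overlap (log2 fold change 0.81, standard error 0.16, edgeR adjusted p = 0.0771; call lost in 9 of the 12 leave-one-out fits). In the same list Fkbp5 (0.72 on the log2 scale), Tsc22d3 (0.83) and Per1 (0.54) did not pass (edgeR adjusted p = 0.239, 0.270 and 0.342), Per1 having been chosen after its values were seen. Fkbp5, Tsc22d3 and Per1 are also known targets of the glucocorticoid receptor. The channel subunits and pumps of the list lay within its range of -0.28 to 0.83, and its median was 0.10.

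Of the 12 tested genes of collecting duct water transport, Prkar2b, a regulatory subunit of the cyclic AMP-dependent kinase, alone was called by edgeR, and DESeq2 called 2 genes. Prkar2b stood at 3.36, 4.96, 2.77 and 6.20 CPM in the control mice and 1.58, 1.86, 1.44 and 1.69 CPM in the treated mice (log2 fold change -1.39, standard error 0.29, edgeR adjusted p = 0.0897), and, like Adipoq and Car3, it had its lowest control value in replicate 3. Its call was lost in 9 of the 12 leave-one-out fits. The vasopressin receptor Avpr1a, chosen after its values were seen, had a log2 fold change of -0.73 (adjusted p = 0.297 from edgeR and 0.0604 from DESeq2), and the median of the list was 0.067. No member was called by edgeR among 9 genes of receptor-mediated endocytosis, 24 organic ion and drug carriers, 9 thin limb and urea genes, 15 thick limb genes, 20 intercalated cell genes and 10 genes of the renin-angiotensin system. At an unadjusted p under 0.05 these lists held 2, 2, 0, 0, 4 and 1 genes, against 8.45% of all genes tested. DESeq2 called 1 endocytosis gene and 1 drug carrier among them. Lrp2, the endocytic receptor megalin, stood at 2157, 2211, 1891 and 2649 CPM in the control mice and 1629.8, 1089, 1035 and 1524 CPM in the treated mice without overlap (log2 fold change -0.76, edgeR adjusted p = 0.173, DESeq2 adjusted p = 0.00597), and its partner Cubn had a log2 fold change of -0.66 (adjusted p = 0.597 from edgeR). The endosomal chloride exchanger Clcn5, chosen after its values were seen, was below all control mice (log2 fold change -0.35, adjusted p = 0.460 from edgeR). The summed level of the 9 endocytosis genes ranged from 3260 to 4281 CPM in the control mice and from 2194 to 2945 CPM in the treated mice. The Slc22 family member Slc22a28 had a log2 fold change of -0.50 and Atp6v1c2, a subunit of the proton pump of intercalated cells, one of -0.36 (edgeR adjusted p = 0.270 and 0.457).

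The summed level of the 10 markers of the early proximal tubule (segments S1 and S2) ranged from 8383 to 10445 CPM in the control mice and from 6915 to 7829 CPM in the treated mice, without overlap, and 1 of the 10 had a positive log2 fold change. The list holds Lrp2, Gatm and Slc5a2. Without these 3, the sum of the other 7 overlapped. It ranged from 5686 to 7165 CPM in the control mice and from 5506 to 6029 CPM in the treated mice. The sum of the 8 markers of the late segment S3 overlapped, with 6361 to 7415 CPM and 5925 to 7945 CPM.

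**Figure D2:**
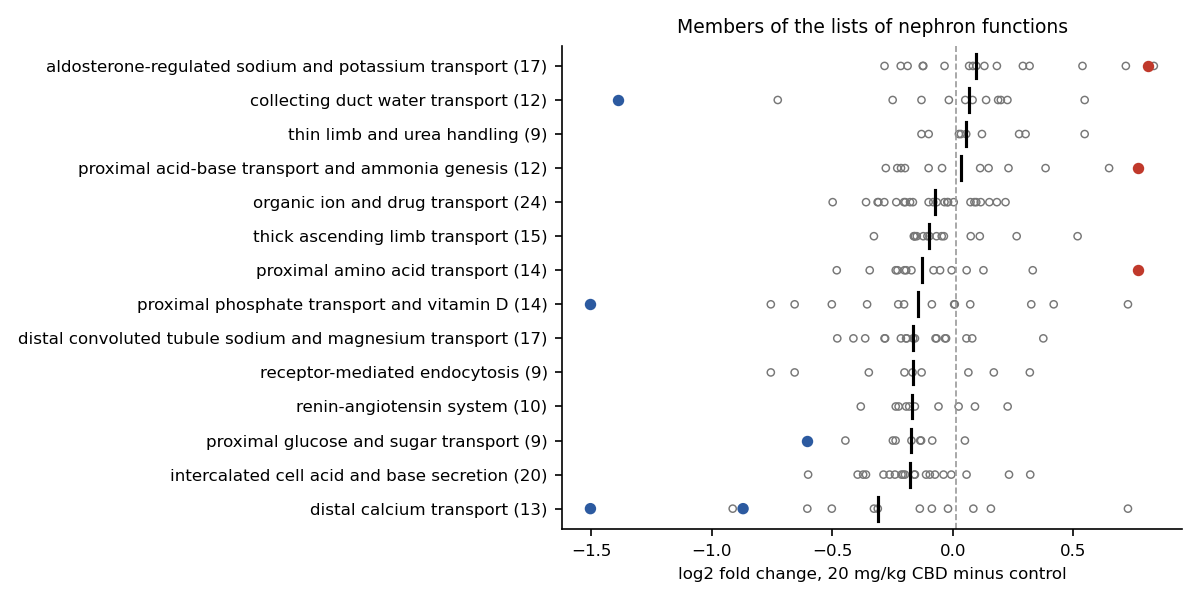
Log2 fold change (20 mg/kg CBD minus control) of the tested members of 14 lists of nephron functions, with the number tested in brackets; filled points are genes called by edgeR (red increased, blue decreased), open points are not called, the black bar is the median of the list and the dashed line the median of all genes tested. The median of distal calcium transport lies at -0.31 and the others between -0.18 and 0.10, and no list holds more than 2 filled points.

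Enzymes of proximal metabolism changed at single steps. Gatm (ENSMUSG00000027199, chromosome 2 from 122424948 to 122441799), which catalyses the first step of creatine synthesis from arginine and glycine, stood at 348, 265, 315 and 395 CPM in the control mice and 193, 168, 118 and 182 CPM in the treated mice. All treated mice were below all control mice (log2 fold change -1.002, standard error 0.17, edgeR adjusted p = 0.0357), and the call was lost without control replicate 1 or 4 or treated replicate 2 (adjusted p up to 0.137). It was the only called gene of 18 tested in arginine, creatine and urea metabolism, whose median log2 fold change was -0.045. Acmsd (ENSMUSG00000026348, chromosome 1 from 127657143 to 127695715), which draws the tryptophan breakdown product away from NAD synthesis, stood at 70.8, 73.0, 83.1 and 69.1 CPM in the control mice and 50.4, 35.02, 32.3 and 40.2 CPM in the treated mice. It fell 1.87-fold (log2 fold change -0.91, standard error 0.14, edgeR adjusted p = 0.0210) and kept its call with any library left out. None of the other 16 tested genes of tryptophan breakdown and NAD synthesis was called, and the median of the list was -0.054.

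Ppard (ENSMUSG00000002250, chromosome 17 from 28451674 to 28520448) encodes a nuclear receptor for fatty acids that is expressed throughout the kidney. It stood at 36.3, 34.9, 41.4 and 36.1 CPM in the control mice and 16.7, 21.9, 19.0 and 15.2 CPM in the treated mice, a 2.04-fold decrease without overlap (log2 fold change -1.03, standard error 0.13, edgeR adjusted p = 0.00346). It was the only called gene of 11 PPAR receptors, partners and coactivators. None of the 27 tested PPAR target genes of fatty acid use was called by edgeR or DESeq2, 3 had an unadjusted p under 0.05, and their median log2 fold change was 0.14. Of 26 genes of peroxisomal fatty acid oxidation, Hacl1, a lyase of the alpha-oxidation of branched fatty acids, rose (7.94, 6.87, 6.75 and 6.09 CPM in the control mice and 14.8, 11.8, 15.1 and 10.7 CPM in the treated mice; log2 fold change 0.92, standard error 0.20, edgeR adjusted p = 0.0948). It overlaps Btd on the opposite strand and Gm49387 on the same strand, and it lost its call in 10 of the 12 leave-one-out fits. Its log2 fold change was 0.52 with Adipoq and 0.50 with the summed adipocyte markers as covariate.

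Among enzymes for foreign compounds, 2 of 16 tested cytochromes P450 and their receptors rose and none fell, and the median log2 fold change was 0.12. Cyp2a5 (ENSMUSG00000005547, chromosome 7 from 26534730 to 26542973), which hydroxylates coumarin and nicotine, stood at 99.6, 105, 136 and 129 CPM in the control mice and 275, 222, 399.9 and 366 CPM in the treated mice. The lowest treated mouse had 222 CPM and the highest control mouse 136 CPM, and the increase was 2.68-fold (log2 fold change 1.42, standard error 0.20, edgeR adjusted p = 0.0134), with the call kept whichever library was left out. Cyp2d22 rose 1.52-fold (30.0, 26.3, 27.0 and 30.0 CPM in the control mice and 41.5, 43.5, 48.4 and 38.9 CPM in the treated mice; log2 fold change 0.60, standard error 0.11, edgeR adjusted p = 0.0516), and its neighbour Cyp2d9, chosen after its values were seen, had a log2 fold change of 0.58 (adjusted p = 0.295 from edgeR). Both families hold near-identical copies, so how reads were divided among them is uncertain. Alas1, the first and rate-limiting enzyme of haem synthesis, on which cytochromes P450 depend, rose 1.65-fold as well (72.1, 55.8, 66.5 and 69.5 CPM in the control mice and 120.2, 101, 97.8 and 117 CPM in the treated mice; log2 fold change 0.72, standard error 0.14, edgeR adjusted p = 0.0567), and its log2 fold change was 0.37 with the summed adipocyte markers as covariate. None of 27 conjugating enzymes and 19 NRF2 oxidative stress genes was called by edgeR or DESeq2, and 5 and 2 of them had an unadjusted p under 0.05. Their medians were 0.10 and -0.018.

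Clock genes moved in opposite directions between the list of genes that E-boxes and D-boxes drive and the list of the Bmal1 arm. Of 12 tested clock genes that E-boxes and D-boxes drive, 6 rose and none fell, and 9 lay above all control mice. DESeq2 called 8. Their median log2 fold change was 0.77. Of the 7 genes of the Bmal1 arm, 4 fell and none rose, 6 lay below all control mice, and the median was -1.21. Cry1, which fell, was placed in this arm although its promoter holds an E-box. That none fell in the other list depends on this placement. Over all genes tested, 0.169% rose and 0.134% fell by edgeR. DESeq2 called 1.06% in either direction, and 2.67% lay above and 2.63% below all control mice. The study reported on clock genes in these samples, so the lists are not independent evidence of the direction.

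Dbp (ENSMUSG00000059824, chromosome 7 from 45354512 to 45359627), an activator of D-boxes, stood at 1.43, 2.19, 2.92 and 2.88 CPM in the control mice and 22.4, 22.1, 24.5 and 26.9 CPM in the treated mice. It had the smallest p-value of all genes tested (log2 fold change 3.35, standard error 0.21, edgeR adjusted p = 1.3e-06). The period gene Per3 stood at 8.23, 12.3, 10.7 and 9.52 CPM in the control mice and 22.1, 27.5, 26.1 and 31.1 CPM in the treated mice. The E-box repressor Bhlhe41 stood at 1.93, 1.43, 1.71 and 1.09 CPM in the control mice and 4.22, 3.71, 4.68 and 4.46 CPM in the treated mice. Each of these 3 genes was separated widely between the groups. Nr1d1, the repressor REV-ERB alpha, stood at 20.7, 26.2, 31.0 and 29.3 CPM in the control mice and 78.5, 74.4, 40.1 and 75.9 CPM in the treated mice, without overlap, and treated replicate 3 was the lowest of its group. The increases of Per3, Bhlhe41, Nr1d1, Ciart and Nr1d2 were 2.62-fold, 2.75-fold, 2.51-fold, 2.63-fold and 1.74-fold (edgeR adjusted p = 0.00124, 0.0144, 0.0487, 0.0580 and 0.0357). Nr1d1 and Ciart lost their call in 6 fits each with 1 library left out and Nr1d2 in 3, and all 3 lost it without control replicate 1 and without control replicate 4. Tef, a relative of Dbp, and the period gene Per2 (chosen after its values were seen) lay above all control mice and were called by DESeq2 (adjusted p = 0.0194 and 0.0189) but not by edgeR (log2 fold change 0.60 and 0.75, adjusted p = 0.169 and 0.168). The overlapping genes on the opposite strand are Thra for Nr1d1, Sphk2 for Dbp and Uts2 for Per3.

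In the Bmal1 arm, Npas2, a partner of Bmal1, stood at 24.3, 19.6, 29.4 and 24.5 CPM in the control mice and 11.7, 11.9, 6.00 and 6.32 CPM in the treated mice. Nfil3, a repressor that competes with Dbp for D-boxes, stood at 10.4, 8.30, 7.56 and 10.4 CPM in the control mice and 3.05, 4.07, 4.20 and 3.56 CPM in the treated mice. Both were lower in every treated mouse. Bmal1 itself stood at 28.0, 20.0, 19.7 and 20.1 CPM in the control mice and 9.43, 12.7, 10.3 and 5.76 CPM in the treated mice. The repressor Cry1 stood at 9.49, 7.35, 5.19 and 4.73 CPM in the control mice and 2.52, 2.04, 3.24 and 2.94 CPM in the treated mice. None of these 4 genes overlapped between the groups, and the log2 fold changes were -1.44, -1.30, -1.21 and -1.32 (standard error 0.23, 0.19, 0.20 and 0.28, edgeR adjusted p = 0.0258, 0.0144, 0.0340 and 0.0897). Cry1 lost its call in 9 of the 12 fits and Bmal1 without control replicate 1. Clock had a log2 fold change of -0.093 (adjusted p = 0.943 from edgeR), with groups that overlapped. Ypel2, of a family of nuclear proteins with little known function, fell 2.55-fold (62.5, 43.0, 45.8 and 36.5 CPM in the control mice and 19.5, 21.2, 18.2 and 14.8 CPM in the treated mice; log2 fold change -1.35, standard error 0.17, edgeR adjusted p = 0.00463). It was the only called gene besides Usp2 of 11 clock output genes.

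**Figure D3:**
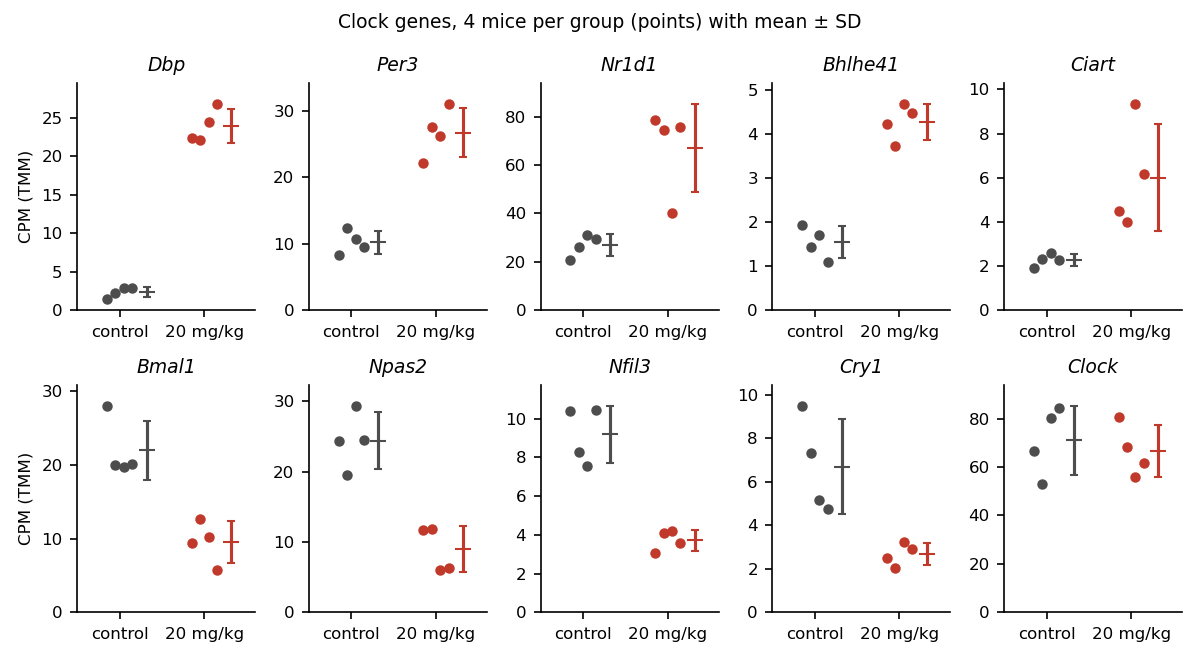
Level (CPM, TMM-normalized, linear axis from 0) of 10 clock genes in the 4 control and 4 treated mice; points are mice in replicate order, and the bar beside them is mean ± SD (n = 4). The upper row lies above all control mice and Bmal1, Npas2, Nfil3 and Cry1 below them, while Clock overlaps with 71.0 ± 14.2 and 66.6 ± 10.6 CPM.

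The promoters of 4 called clock genes are shown for the motifs that the loop uses, since clock proteins are known to act on one another through such sites. The 250 bases upstream of the start site were read from RefSeq (GRCm38.p6) for 11491 of the genes tested, among them 21 of the 29 increased and 17 of the 23 decreased genes, and searched on both strands for CACGTG (the E-box), TTATGTAA (a D-box), TAGGTCA (the core bound by REV-ERB) and ACANNNTGT (the core bound by the glucocorticoid receptor). The E-box stood in 9.62% of the promoters of all genes tested, in 3 of 21 increased and in 4 of 17 decreased genes. The D-box stood in 0.661%, 1 of 21 and 0 of 17, the REV-ERB core in 2.12%, 0 of 21 and 1 of 17, and the glucocorticoid core in 5.03%, 1 of 21 and 0 of 17. Ciart held 3 E-boxes, beginning 116, 58 and 44 bases before the start site, and Cry1, which fell, held 1, at 60 bases. The other called genes with an E-box were Bhlhe41 and Slc43a1, which rose, and Rhobtb1, Prkar2b and D630024D03Rik, which fell. Per3 held both D-boxes of the increased genes, at 205 and 158 bases, and Nfil3 the REV-ERB core, at 12 bases and on the opposite strand. The glucocorticoid core of the increased genes stood in Map3k6. The windows of Dbp, Nr1d1, Nr1d2 and Npas2 held none of these letters. Bmal1 was not among the genes whose windows were read. Capitals mark the motifs in the following upstream sequences, which run 5′ to 3′ on the strand of each gene.
Ciart (chr3:95882229-95882478, minus strand): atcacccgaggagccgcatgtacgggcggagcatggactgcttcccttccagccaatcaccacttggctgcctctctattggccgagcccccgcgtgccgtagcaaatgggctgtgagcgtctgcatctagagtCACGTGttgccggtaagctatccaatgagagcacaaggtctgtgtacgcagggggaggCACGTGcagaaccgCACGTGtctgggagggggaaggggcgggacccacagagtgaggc
Per3 (chr4:151044666-151044915, minus strand): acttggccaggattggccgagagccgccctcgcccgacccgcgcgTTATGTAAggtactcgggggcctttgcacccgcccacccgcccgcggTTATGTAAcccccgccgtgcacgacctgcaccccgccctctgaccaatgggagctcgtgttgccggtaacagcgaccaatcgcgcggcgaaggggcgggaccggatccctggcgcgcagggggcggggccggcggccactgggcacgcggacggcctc
Nfil3 (chr13:52981040-52981289, minus strand): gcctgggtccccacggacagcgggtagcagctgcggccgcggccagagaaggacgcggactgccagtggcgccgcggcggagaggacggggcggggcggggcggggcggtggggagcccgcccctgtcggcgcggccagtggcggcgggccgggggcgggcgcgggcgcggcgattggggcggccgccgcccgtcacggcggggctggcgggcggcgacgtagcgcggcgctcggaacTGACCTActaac
Cry1 (chr10:85185055-85185304, minus strand): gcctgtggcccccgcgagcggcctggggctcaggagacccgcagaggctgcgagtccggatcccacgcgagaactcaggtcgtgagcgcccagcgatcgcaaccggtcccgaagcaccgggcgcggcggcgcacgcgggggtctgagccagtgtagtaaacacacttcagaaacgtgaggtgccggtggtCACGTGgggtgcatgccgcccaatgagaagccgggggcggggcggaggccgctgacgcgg

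Of the glucocorticoid-induced genes, 1 of 22 tested rose and none fell, where 0.169% and 0.134% of all genes tested did. The study named genes of this kind in these samples, so the list is not independent evidence. Its median log2 fold change was 0.52, 20 of the 22 had a positive value, and 8 lay above all control mice where 2.67% of all genes did. DESeq2 called 8 of them, all increased, and 1.06% of all genes tested in either direction. Ddit4, an inhibitor of the growth kinase mTORC1, stood at 16.1, 10.97, 13.5 and 8.16 CPM in the control mice and 24.7, 27.4, 27.3 and 25.1 CPM in the treated mice (log2 fold change 1.09, standard error 0.23, edgeR adjusted p = 0.0849), and lost its call in 9 of the 12 leave-one-out fits. With the summed adipocyte markers as covariate its log2 fold change was 0.66. Mt2, a metallothionein that binds zinc, stood at 6.34, 4.87, 5.44 and 2.99 CPM in the control mice and 9.25, 11.7, 14.8 and 14.7 CPM in the treated mice and just missed the threshold by edgeR (log2 fold change 1.36, standard error 0.29, edgeR adjusted p = 0.102), while DESeq2 called it (adjusted p = 0.00215). With the summed adipocyte markers as covariate its log2 fold change was 0.76. Of 22 genes of gluconeogenesis and insulin-FOXO signalling, Ddit4 alone was called by edgeR, DESeq2 called 5, and the median was -0.011. There Pck1 and G6pc1, which stand at the start and the end of glucose synthesis, differed in opposite directions with no overlap, and were called by DESeq2 (adjusted p = 0.0166 and 0.0148) but not by edgeR (log2 fold change 0.65 and -0.56, adjusted p = 0.295 and 0.236), G6pc1 having been chosen after its values were seen.

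In the hypoxia list, Hif3a and Ddit4 rose among 18 tested genes, whose median was -0.0053. Hif3a, a member of the hypoxia-inducible factor family, stood at 0.714, 0.668, 2.01 and 1.25 CPM in the control mice and 2.64, 4.49, 3.84 and 5.25 CPM in the treated mice (log2 fold change 1.81, standard error 0.34, edgeR adjusted p = 0.0567) and overlaps 4833404L02Rik on the opposite strand. Klf2, a transcription factor that blood flow induces in endothelium, stood at 8.86, 8.82, 11.6 and 10.3 CPM in the control mice and 14.7, 22.2, 24.2 and 15.2 CPM in the treated mice and was the only called gene of 19 immediate early genes (log2 fold change 0.95, standard error 0.18, edgeR adjusted p = 0.0567; median -0.14). Gpihbp1, which anchors lipoprotein lipase on capillaries, rose 1.49-fold, with 15.0 to 19.7 CPM in the control mice and 23.0 to 28.2 CPM in the treated mice. Myh11, the myosin of smooth muscle, rose 1.63-fold, with 65.8 to 83.3 CPM in the control mice and 104 to 149 CPM in the treated mice. Tns2, a tensin of focal adhesions, rose 1.58-fold and Pear1, an endothelial and platelet receptor, 1.55-fold (for the 4 genes in this order, edgeR adjusted p = 0.0924, 0.0760, 0.0771 and 0.0590). Leaving out 1 library ended the call of each of these 4 genes in 6 to 11 fits. None of the 10 endothelial and 10 stromal markers was called by edgeR, with 1 endothelial marker lower (Kdr, a VEGF receptor, chosen after its values were seen) and 2 stromal markers higher at an unadjusted p under 0.05, and their medians were 0.14 and 0.24. The alkaline ceramidase Acer2 rose 1.75-fold (adjusted p = 0.0897 from edgeR). Acer2, Hif3a and Klf2 lost their call in 10, 5 and 5 of the 12 leave-one-out fits. Sphk1, which phosphorylates the sphingosine that ceramidases release, did not pass (log2 fold change 1.25, adjusted p = 0.127 from edgeR).

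The remaining called genes fell into no list. Insc, which orients the mitotic spindle, stood at 1.39, 2.67, 2.72 and 2.23 CPM in the control mice and 0.703, 0.299, 0.180 and 0.847 CPM in the treated mice and had the most negative log2 fold change of the called genes (log2 fold change -2.12, standard error 0.43, edgeR adjusted p = 0.0771). Rhobtb1 fell 1.86-fold, with 90.1 to 123 CPM in the control mice and 51.8 to 66.3 CPM in the treated mice, and the guanine nucleotide exchange factor Arhgef19 1.85-fold, with 12.2 to 18.3 CPM in the control mice and 6.85 to 9.42 CPM in the treated mice. Itga6, a subunit of laminin receptors, fell 1.66-fold (78.6 to 90.3 CPM in the control mice and 38.5 to 63.8 CPM in the treated mice). The decreases of Rtl6, a gene of retrotransposon origin, the arrestin-domain adaptor Arrdc3, the phosphatase Ppm1h and the long noncoding RNAs Gm60859 and D630024D03Rik were 2.07-fold, 1.56-fold, 1.47-fold, 2.65-fold and 1.58-fold. Insc, Rhobtb1, Arhgef19 and Itga6 lost their call in 8, 8, 6 and 9 of the 12 leave-one-out fits. Rtl6, Arrdc3, Ppm1h, Gm60859 and D630024D03Rik lost theirs in 3, 10, 7, 8 and 5. Arrdc2, a relative of Arrdc3, went the other way and rose 1.95-fold, with 8.31 to 9.68 CPM in the control mice and 14.5 to 19.7 CPM in the treated mice. Rgcc, a regulator of the cell cycle, rose 2.07-fold (5.60 to 9.57 CPM in the control mice and 12.4 to 20.1 CPM in the treated mice), and the kinase Map3k6 2.19-fold (3.01 to 6.47 CPM in the control mice and 9.02 to 13.5 CPM in the treated mice). Rcsd1 and Susd3 rose 1.56-fold and 1.68-fold, and the long noncoding RNA A830021M18Rik and the miRNA gene model Gm55632 2.37-fold and 2.75-fold. Arrdc2, Rgcc, Map3k6, Rcsd1, Susd3 and Gm55632 lost their call in 1, 3, 4, 7, 4 and 5 of the 12 leave-one-out fits, and A830021M18Rik in none. The pseudogene Gm13559 stood at 0.798, 0.668, 0.756 and 0.870 CPM in the control mice and 2.05, 1.98, 11.8 and 2.20 CPM in the treated mice, and its log2 fold change went from 2.53 to 1.42 without treated replicate 3. It lies within Upp2, a uridine phosphorylase, on the same strand, and Upp2 had a log2 fold change of 0.68 (adjusted p = 0.279 from edgeR).

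Genes of lipid synthesis and fat were measured beside markers of adipocytes, which moved with the groups. Of 21 tested genes of fatty acid synthesis, Fasn fell and none rose, 4 lay below all control mice where 2.63% of all genes did, and the median log2 fold change was -0.13. Fasn, the fatty acid synthase, stood at 56.1, 109.8, 54.1 and 118 CPM in the control mice and 38.2, 40.2, 38.7 and 41.5 CPM in the treated mice (log2 fold change -1.09, standard error 0.23, edgeR adjusted p = 0.0924). Acaca and Scd1 (chosen after their values were seen) and Acly were below all control mice and were called by DESeq2 (adjusted p = 0.0114, 0.0939 and 0.0835) but not by edgeR (log2 fold change -0.72, -0.84 and -0.49, adjusted p = 0.127, 0.342 and 0.312). Car3, a carbonic anhydrase abundant in fat, stood at 55.7, 69.2, 25.6 and 74.8 CPM in the control mice and 12.7, 13.6, 9.66 and 21.7 CPM in the treated mice (log2 fold change -1.97, standard error 0.36, edgeR adjusted p = 0.0516). Fasn and Car3 lost their call in 9 and 6 of the 12 leave-one-out fits. No gene of 22 in cholesterol synthesis was called by edgeR or DESeq2 (3 at an unadjusted p under 0.05), and the median log2 fold change was -0.18.

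Adipoq, the adiponectin gene that only fat cells express, stood at 10.5, 19.2, 1.06 and 14.5 CPM in the control mice and 0, 1.44, 0.120 and 2.60 CPM in the treated mice, so that control replicate 3 lay within the treated range. Of the 11 adipocyte markers, 10 were tested, each with a negative log2 fold change (median -2.64), and Car3 alone was called by edgeR, with 4 called by DESeq2. Their summed level ranged from 334 to 701 CPM in the control mice and from 224 to 272 CPM in the treated mice, and Scd1 and Fabp4, which kidney also expresses, made up 79.8% to 99.4% of that level without Car3. The 4 tested of 5 markers of brown fat cells had a median of -2.82, and the 5 summed to 1.64 to 16.04 CPM in the control mice and 0.879 to 3.84 CPM in the treated mice. With log2(Adipoq CPM + 1) of each library as a covariate, a choice made after seeing the data, the log2 fold changes of Car3, Prkar2b and Fasn went from -1.97, -1.39 and -1.09 to -0.78, -0.70 and -0.55. Those of Slc5a2, Slc8a1, Cyp24a1, Slc38a3, Gatm and Acmsd were -0.54, -0.66, -1.75, 0.76, -0.90 and -1.01 in that fit. Of the 52 genes, 3 were still called by edgeR. All 52 kept their sign and an unadjusted p under 0.05. They had been chosen by a small p in these same libraries, so this is no separate support. With the summed marker level without Car3 in place of Adipoq, Car3, Prkar2b and Fasn stood at -0.68, -0.44 and -0.20 on the log2 scale (unadjusted p = 0.141, 0.228 and 0.434 from edgeR), and Slc5a2, Slc8a1, Cyp24a1, Slc38a3, Gatm and Acmsd at -0.59, -0.58, -1.27, 0.95, -0.97 and -0.95. Of genes not called, Trpv5 went from -0.60 to -0.17 with Adipoq and -0.12 with the sum, Slc12a3 from -0.48 to -0.25 and -0.23, and Cubn from -0.66 to -0.32 with the sum. In the fit with the sum, 1 of the 52 called genes was still called. All 52 kept their sign and 45 an unadjusted p under 0.05, with the same limit. The summed covariate did not overlap between the groups, with 8.27 to 9.31 in the control and 7.73 to 8.02 in the treated mice on the log2 scale. Its effect and that of the treatment can therefore not be fully told apart in this fit. The Adipoq covariate ran from 1.04 to 4.34 in the control and from 0 to 1.85 in the treated mice, and overlapped through control replicate 3 alone. The fit with Adipoq therefore has much the same limit. Whether fat tissue was dissected with the kidneys was not tested.

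**Figure D4:**
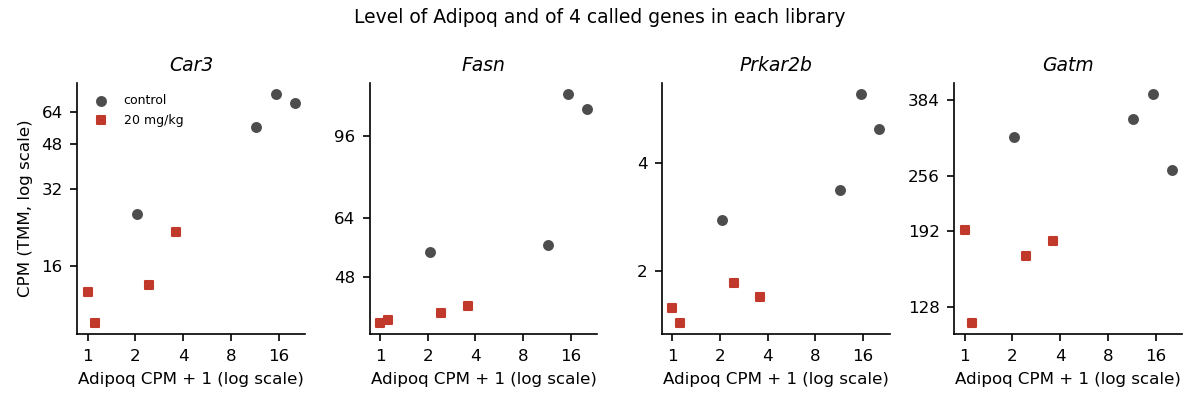
Level (CPM, TMM-normalized, logarithmic axes) of Car3, Fasn, Prkar2b and Gatm against Adipoq CPM + 1 in the 4 control (circles) and 4 treated (squares) mice. In control replicate 3, with 1.06 CPM of Adipoq, Car3, Fasn and Prkar2b are at their lowest of the control group, while Gatm at 315 CPM is not. Control replicate 1 has 10.5 CPM of Adipoq. Its Car3, Fasn and Prkar2b are at 55.7, 56.1 and 3.36 CPM, against 25.6, 54.1 and 2.77 CPM in replicate 3.

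The other pathways held no gene called by edgeR. Across 29 genes of glycolysis and the citric acid cycle, 32 nuclear-encoded genes of oxidative phosphorylation, 17 cell cycle genes, 24 interferon-stimulated genes and 14 markers of tubular injury, the medians lay at -0.19, -0.049, -0.056, 0.11 and 0.15, with 4, 2, 1, 3 and 2 genes at an unadjusted p under 0.05 and no DESeq2 call. The 13 mitochondrially encoded proteins had a median of 0.60 and 0 of them had an unadjusted p under 0.05 by edgeR, and no DESeq2 call. For the 17 genes of chemokines and leukocyte traffic the median was 0.43, 7 had an unadjusted p under 0.05, and Cxcl12 and the adhesion molecule Vcam1 had log2 fold changes of 0.62 and 0.54 (edgeR adjusted p = 0.337 and 0.337). Of 26 matrix genes, DESeq2 called 2 and edgeR none. The crosslinking enzyme Lox had a log2 fold change of 1.44 (edgeR adjusted p = 0.187), and the glomerular basement membrane chains Col4a3 and Col4a4, chosen after their values were seen, had -0.61 and -0.42 (edgeR adjusted p = 0.337 and 0.555), below all control mice. Of 22 genes of the cannabinoid system and reported CBD targets, 16 passed the filter on low counts, and the receptors Cnr1, Gpr55, Trpv1, Trpa1, Trpm8 and Htr1a did not. None of the 16 was called by edgeR or DESeq2, 1 had an unadjusted p under 0.05, and the median was -0.054.

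**Figure D5:**
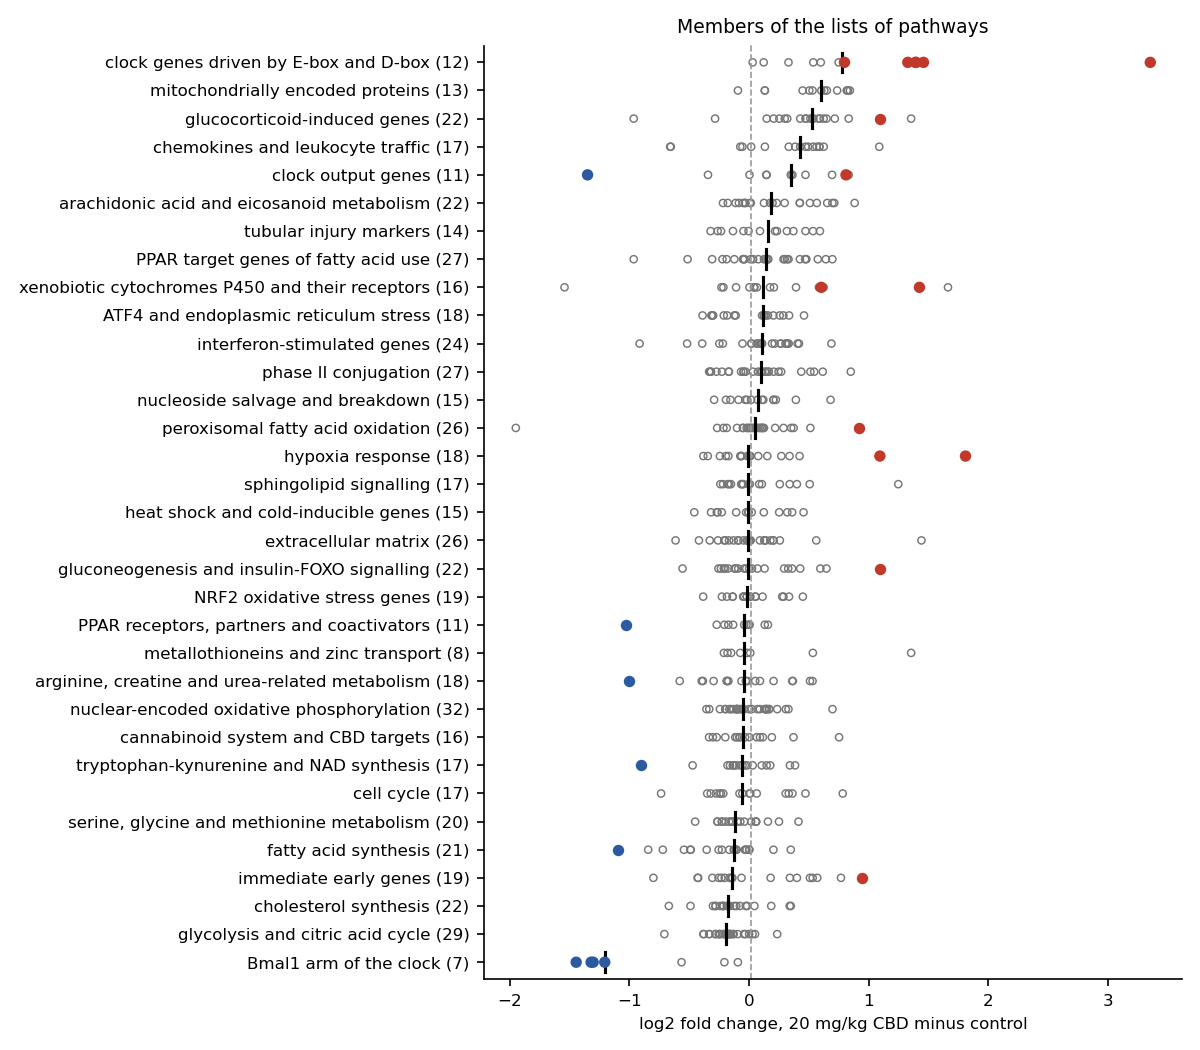
Log2 fold change (20 mg/kg CBD minus control) of the tested members of 33 lists of pathways, with the number tested in brackets; filled points are genes called by edgeR (red increased, blue decreased), open points are not called, the black bar is the median of the list and the dashed line the median of all genes tested. Clock genes driven by E-box and D-box have the highest median (0.77) and the Bmal1 arm the lowest (-1.21), and the other lists hold at most 2 filled points.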

How the data were processed

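RNA of whole kidney was sequenced as poly(A) RNA from 12 mice, and the counts per gene deposited for each library by the authors were used as they stand. According to the submitters' processing notes and the study's methods, reads were checked with FastQC 0.11.9, trimmed with Flexbar, aligned with STAR 2.7.5c and counted with HTSeq 1.99.2, with no normalization of the deposited counts. Rows naming no gene were left out. Genes passing edgeR's filter on low counts were normalized by TMM and tested with edgeR 4.0.16 (quasi-likelihood, R 4.3.3), in 1 fit over all 3 groups, and called at a Benjamini-Hochberg adjusted p under 0.1. CPM values are computed from the counts with TMM factors and are not per length, so they compare mice and not genes. The script was tested on simulated data.

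Groups followed the labels. The text names the called genes, the first 2 tested genes of each list and the list member of smallest p, and any other gene is said to have been chosen after its values were seen. The members and the 65 gene lists were chosen with earlier results of these data known, so no list is independent support. Alternatives were DESeq2 1.42.0, limma-voom 3.58.1, a surrogate variable from sva 3.50.0, other normalizations and filters, a replicate block, a mitochondrial covariate and each library left out, and covariates for adipocyte level and the removal of 4 libraries were added after seeing the data. Gene positions and names are of GRCm39 (GENCODE), and promoters of GRCm38.p6 (RefSeq). Depth limits the precision of genes under a few CPM. Some genes that the rule would name are not reported here.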

Additional observations from a re-analysis of the deposited data

Results flagged for a closer look

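In groups of 4 mice, a value was marked where the gap between the highest or lowest mouse and its neighbour, divided by the range of the group, was above Dixon's 95% critical value for 4 samples. Over 92 genes and 4 library measures, in both groups, 12 sets of 4 values were marked, and chance alone marks about 1 in 20. A830021M18Rik had its highest value of the treated group in replicate 3 (7.44, 7.84, 9.84 and 7.79 CPM in replicates 1 to 4; ratio 0.831). Atp6v1c2 had its lowest value of the control group in replicate 3 (25.8, 25.8, 21.5 and 26.0 CPM in replicates 1 to 4; ratio 0.959). Avpr1a had its lowest value of the control group in replicate 3 (13.0, 12.8, 8.81 and 13.0 CPM in replicates 1 to 4; ratio 0.956). Bmal1 had its highest value of the control group in replicate 1 (28.0, 20.0, 19.7 and 20.1 CPM in replicates 1 to 4; ratio 0.949). Cxcl12 had its lowest value of the control group in replicate 2 (87.7, 70.6, 88.2 and 89.1 CPM in replicates 1 to 4; ratio 0.925). Glud1 had its highest value of the treated group in replicate 1 (584, 457, 469 and 454 CPM in replicates 1 to 4; ratio 0.886). Gm13559 had its highest value of the treated group in replicate 3 (2.05, 1.98, 11.8 and 2.20 CPM in replicates 1 to 4; ratio 0.977). Nr1d1 had its lowest value of the treated group in replicate 3 (78.5, 74.4, 40.1 and 75.9 CPM in replicates 1 to 4; ratio 0.891). Scd1 had its lowest value of the treated group in replicate 4 (141, 139.9, 142 and 118 CPM in replicates 1 to 4; ratio 0.903). Susd3 had its highest value of the treated group in replicate 3 (37.1, 35.6, 50.1 and 36.5 CPM in replicates 1 to 4; ratio 0.899). Wnk1 had its highest value of the control group in replicate 4 (389.8, 394, 378 and 496 CPM in replicates 1 to 4; ratio 0.865). The total counts of the treated group were 18045399, 18219064, 16306563 and 18168511, with replicate 3 the lowest (ratio 0.909). The treated replicate 3 also had the lowest mitochondrial share of its group, 5.54%, and was the marked mouse for Gm13559, Susd3, Nr1d1 and A830021M18Rik. Without the 4 libraries of a mitochondrial share under 10%, it included, the log2 fold changes of these 4 genes were 1.36, 0.62, 1.504 and 1.04. The causes were not tested.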

How the results depend on the processing

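With 52 genes called in the main analysis (29 increased, 23 decreased, in 20 of the 47 lists of nephron functions and pathways), RLE and upper-quartile normalization, limma-voom, both stricter filters, the fit to both compared groups alone and the removal of mitochondrial and rRNA genes gave 47 to 56 genes. DESeq2 called 182 (99 increased, 83 decreased). Without a filter on low counts 416 were called (289 and 127, in 34 lists). The mitochondrial share as a covariate gave 1386 (813 and 573, in 43 lists) and 1 surrogate variable 412 (214 and 198, in 39 lists). Without the 4 libraries of low mitochondrial share 107 were called (65 and 42). The adipocyte marker level as a covariate left 1 (1 and 0, in 1 list) and Adipoq 3 (2 and 1, in 2 lists). An adjusted p under 0.05 left 23 (12 and 11, in 8 lists), and an absolute log2 fold change of at least 1 left 28 (14 and 14, in 13 lists). With 1 library left out, 14 to 54 were called (7 to 30 increased, 6 to 24 decreased, in 7 to 22 lists). The difference in mitochondrial share ranged from 0.957 to 6.92 percentage points with 1 library left out. The causes were not tested.

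Replicate numbers did not pair the mice: correlations of same-numbered libraries' deviations from their group means ran from -0.330 to 0.317. The fit with the replicate number as a block called 27 genes (13 and 14, in 10 lists).

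Of 92 genes named, Clock and Scd1 changed sign, to 0.047 with 1 surrogate variable and to 0.029 with the adipocyte marker level, of which Scd1 is a member. None of the 52 called genes changed sign in any alternative. In fits without a covariate this was nearly fixed in advance, since the groups of these genes did not overlap. With 4 mice a group, the changes of megalin, Calb1 and Mt2 lay on either side of the threshold depending on the test.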

Other observations

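Lists not described above held no gene called by edgeR. For serine, glycine and methionine metabolism, 20 genes were tested, the median log2 fold change was -0.12, 0 had an unadjusted p under 0.05 by edgeR and DESeq2 called 0. For nucleoside salvage, 15 genes were tested, the median log2 fold change was 0.072, 1 had an unadjusted p under 0.05 by edgeR and DESeq2 called 1. For heat shock and cold response, 15 genes were tested, the median log2 fold change was -0.0054, 2 had an unadjusted p under 0.05 by edgeR and DESeq2 called 0. For endoplasmic reticulum stress, 18 genes were tested, the median log2 fold change was 0.12, 1 had an unadjusted p under 0.05 by edgeR and DESeq2 called 1. For sphingolipid signalling, 17 genes were tested, the median log2 fold change was -0.0054, 4 had an unadjusted p under 0.05 by edgeR and DESeq2 called 1. For metallothioneins and zinc transport, 8 genes were tested, the median log2 fold change was -0.043, 2 had an unadjusted p under 0.05 by edgeR and DESeq2 called 1.

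Of 25 genes of arachidonic acid and eicosanoid metabolism, 22 were tested, 4 had an unadjusted p under 0.05 by edgeR, DESeq2 called 1, and the median was 0.19. Their summed level did not overlap between the groups, with 22566 to 30553 CPM in the control mice and 32533 to 38428 CPM in the treated mice. Most of that sum was Gpx3, the glutathione peroxidase that proximal cells secrete into plasma, chosen after its values were seen. It stood at 19807, 17079, 23724 and 22891 CPM in the control mice and 26383, 28226, 31616 and 25850.2 CPM in the treated mice. The lowest treated mouse was above the highest control mouse, without a call by edgeR or DESeq2 (log2 fold change 0.42, standard error 0.18, edgeR adjusted p = 0.527; DESeq2 adjusted p = 0.116).

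The summed level of the hypoxia list, in which Hif3a and Ddit4 rose, ran the other way, with 4602 to 4816 CPM in the control mice and 3737 to 4089 CPM in the treated mice. Ndrg1, a stress- and differentiation-related gene that hypoxia induces, made up most of it and was also chosen after its values were seen. It stood at 3107, 3166, 3245 and 3419 CPM in the control mice and 2673, 2387, 2674 and 2453 CPM in the treated mice. All treated mice were below all control mice, without a call by edgeR (log2 fold change -0.34, standard error 0.13, edgeR adjusted p = 0.475), and DESeq2 called it (adjusted p = 0.0194).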
